A study of Mus musculus with 6 samples.

Results

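Oxidative phosphorylation subunits are the proteins of the 4 respiratory complexes of the inner mitochondrial membrane and of the ATP synthase, which is counted as complex V. They were examined here in control and Dicer mutant ureteric bud cells. Dicer is the enzyme that cuts precursor hairpins into mature miRNAs. Members were taken by symbol: the numbered Nduf genes of the A, B, C, S and V series for complex I, Sdha to Sdhd for complex II, Cyc1 and the Uqcr genes for complex III, the lettered Cox genes for complex IV, and the Atp5 genes for complex V. This gave 80 of the 19296 genes on the arrays that could be named, with 35 in complex I, 4 in complex II, 9 in complex III, 15 in complex IV and 17 in complex V. Ndufa4 was counted in complex I by its symbol, although the protein is now regarded as a subunit of complex IV.

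RNA came from YFP-positive ureteric bud cells sorted by FACS from mouse kidneys at E15.5 and was hybridised to Affymetrix whole-transcript arrays. The control group (3 arrays) is labelled wild type, and the mutant group (3 arrays) Dicerc/-; Hoxb7Cre; Rosa26YFP, both on a mixed strain background. In the mutant, the Hoxb7Cre transgene deletes the conditional Dicer allele (Dicerc) in the ureteric bud lineage, the second allele is a null, and Rosa26YFP labels cells that Cre has reached. Cells of both groups were sorted on YFP, but the labels do not say which transgenes the control carried, so an effect of Cre cannot be told apart from that of Dicer. The labels call the replicates biological but do not give the number of embryos behind each. The p-values thus rest on the spread among these 6 arrays, and their number limits the precision.

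The respiratory chain passes electrons from NADH (through complex I) and succinate (through complex II) by way of coenzyme Q to complex III, and then through cytochrome c to complex IV, which reduces oxygen. Complexes I, III and IV pump protons across the inner membrane, and complex V uses the gradient to make ATP. All subunits of complex II, and most of the others, are encoded in the nucleus and imported, and complexes I, III, IV and V also contain subunits made inside the mitochondrion. Some of the nuclear-encoded subunits carry redox centres or catalytic sites, and many others are accessory proteins needed for assembly or stability.

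Values are RMA signals on the log2 scale. Arrays had medians of 7.47 to 7.54, and arrays of the same group correlated across genes at a Pearson's r of 0.997 to 0.998, arrays of different groups at 0.988 to 0.992. Dicer1 kept 66.3% of the control signal in the mutant. It read 10.31, 10.38 and 10.25 on the control arrays and 9.80, 9.72 and 9.64 on the mutant arrays. Its difference was -0.59 (SE 0.06; limma, adjusted p = 0.0005; two-sided exact permutation p = 0.1, the smallest that 3 against 3 arrays allow). Ureteric bud markers were bright (12 measured, median signal 11.68), with 7 lower and 1 higher in the mutant, and their summed log2 signal was 139.7 to 140.1 in control and 137.0 to 138.2 in mutant arrays. Nephron progenitor markers summed to 41.4 to 42.4 in control and 44.3 to 44.5 in mutant arrays. Of these 6 only Six2 was called higher (by 3.29) and Osr1 lower (difference -0.67), and their median difference was -0.10. Proximal tubule markers summed to 38.6 to 41.2 in control and 39.2 to 39.4 in mutant arrays, with 1 of 6 higher (Lrp2, by 1.05) and 2 lower. Of the stroma, endothelium, macrophage, erythroid and muscle lists only the macrophage list had a call, Ptprc, which was lower. Their median differences ran from -0.36 (endothelium) to 0.07 (stroma). Array signals have no true zero, so none of these markers can be called absent, and the part of any such cells in the results was not tested.

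Transcripts of the respiratory chain were lower in the Dicer mutant cells, by small amounts and in all complexes. Of the 80 members, 47 fell, 0 rose and 33 did not pass limma's test at an adjusted p of 0.05 over all genes. At an unadjusted p under 0.05, 52 members were lower and 0 higher, and the share of all genes at that threshold is not given here. At the adjusted threshold, 13.9% of all 19296 genes were called lower and 11.8% higher. Among the 9677 genes above the median signal of 7.51, to which 74 of the members belong, 20.3% were called lower and 19.3% higher. The members' median difference was -0.23, which is a mutant signal of 85.5% of control, beside -0.05 for all genes and -0.01 for those above the median signal. The called members kept between 59.9% (Sdhd) and 88.8% (Ndufa9) of the control signal, and 8 of them fell by 0.5 or more on the log2 scale. Of the 12 ureteric bud markers, 58.3% were called lower as well, and their part in the result was not tested. In bulk RNA, fewer cells that express a gene and less of its RNA per cell cannot be told apart.

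The shift was present on every mutant array. The median deviation of the 80 members from their control means was 0.01, -0.0042 and 0.0044 on the control arrays and -0.25, -0.22 and -0.23 on the mutant arrays. On each mutant array 72 of the 80 members lay below their control mean. All 3 mutant values lay below all 3 control values for 57 members, against 24.1% of all genes and 32.1% of those above the median signal, and no member was separated in the other direction. The number called lower was 33 to 40 with any 1 array left out, and 41 or 43 after median centring or renewed quantile normalization. Of all 19296 genes, 1764 to 2973 were called lower with 1 array left out. After median centring the count for all genes was 2241, and after renewed quantile normalization 2585.

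**Figure D1:**
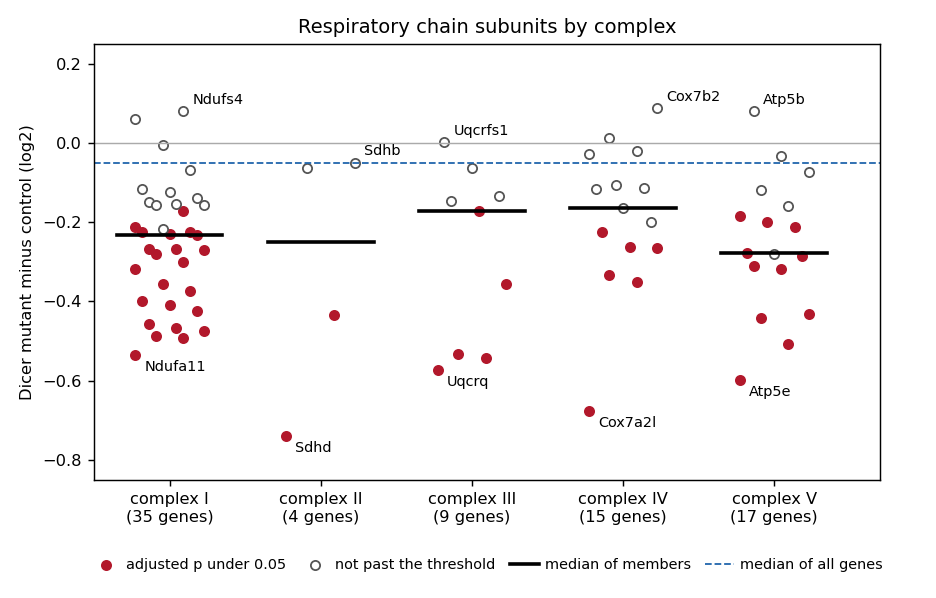
Difference between Dicer mutant and control (log2) of each of the 80 subunit genes, grouped by respiratory complex. Filled points passed an adjusted p of 0.05 in limma, open points did not, bars are medians of the members and the dashed line is the median of all genes (-0.05). All 47 filled points lie below 0, and the lowest and the highest member of each complex are named.

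**Figure D2:**
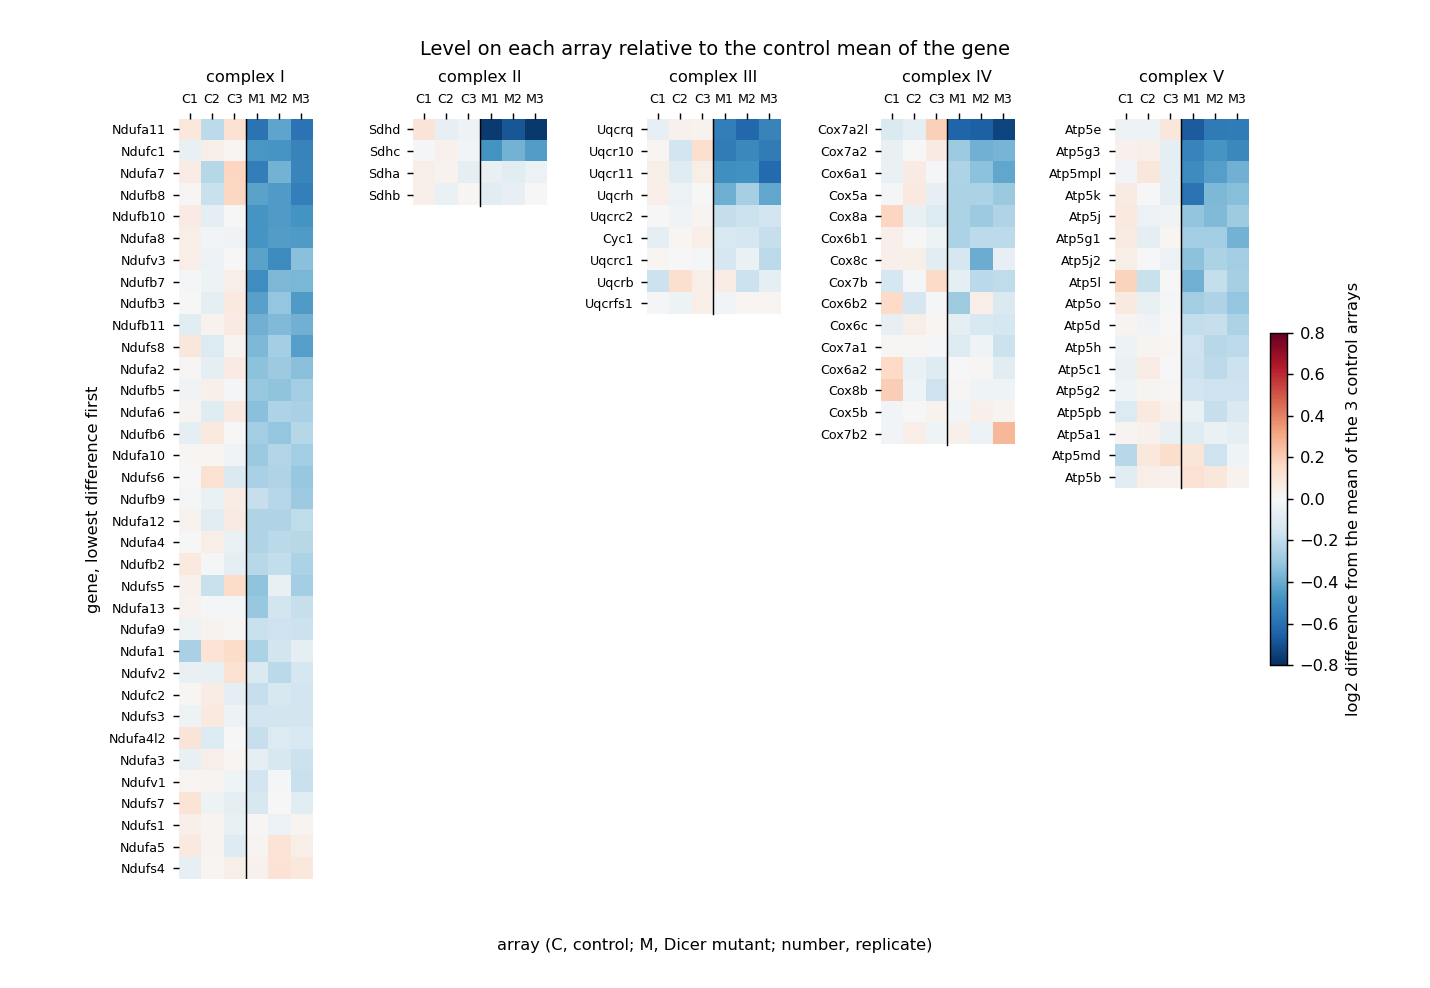
Signal of each subunit gene on each array as the log2 difference from the gene's mean on the 3 control arrays, by complex, with the lowest difference at the top. Columns C1 to C3 are control and M1 to M3 Dicer mutant arrays. The mutant columns are blue for most genes in each complex and pale blue, near white or pale red at the bottom of each panel.

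Complex I, the NADH dehydrogenase and the largest complex, had 23 of 35 members lower, 0 higher and 12 not past the threshold, with a median difference of -0.23. Without mutant replicate 1, 15 were called lower, as were 1764 of all 19296 genes. Of the accessory subunits 22 of 29 were lower (median -0.27), and 1 of 6 measured core subunits was (median -0.13); no test of the difference between these classes was made. Ndufc1, an accessory subunit of the membrane arm, read 10.04, 10.14 and 10.12 in control and 9.63, 9.63 and 9.56 in mutant arrays. The groups lay far apart relative to their spread, with a difference of -0.49 (SE 0.06, adjusted p = 0.000646).

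Ndufa8, an accessory subunit on the intermembrane-space side, read 10.50, 10.43 and 10.43 in control and between 9.99 and 10.01 in mutant arrays (difference -0.46, SE 0.05, adjusted p = 0.000649). Ndufb10 read 7.94, 7.80 and 7.88 in control and 7.40, 7.42 and 7.39 in mutant arrays (difference -0.47, SE 0.06, adjusted p = 0.000871). For both genes the 3 mutant values were nearly equal and all below control. The largest difference of the complex was that of Ndufa11, a membrane-arm subunit, at -0.54 (SE 0.10, adjusted p = 0.0054). Its control arrays were more scattered (11.08, 10.79 and 11.12) than those of Ndufa8, and its mutant arrays read 10.41, 10.58 and 10.41. Ndufv3, Ndufb7 and Ndufb11 had differences of -0.42, -0.41 and -0.37.

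Among the core subunits of complex I, Ndufs8, which carries iron-sulphur clusters, fell from 11.59 ± 0.10 to 11.23 ± 0.08 (SD, n = 3 each; adjusted p = 0.0090 in limma). Ndufs1, the largest subunit of the peripheral arm and also an iron-sulphur protein, read 9.83, 9.82 and 9.73 in control and 9.81, 9.75 and 9.81 in mutant arrays, so the groups overlapped. Its difference was -0.0039 (95% confidence interval -0.13 to 0.13). The remaining 4 core subunits, Ndufs3, Ndufs7, Ndufv1 and Ndufv2, had differences of -0.15, -0.07, -0.12 and -0.16 and did not pass. At the other end of the complex, Ndufs4, an accessory subunit often mutated in Leigh syndrome, had the highest difference, 0.08 (95% confidence interval -0.05 to 0.21; not past the threshold). Ndufa4 fell by 0.23 on the log2 scale (adjusted p = 0.0174). Its paralogue Ndufa4l2, a hypoxia-induced gene, was dim (6.39 to 6.60 in control and 6.31 to 6.39 in mutant arrays), with a difference of -0.14 that did not pass.

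Complex II, the succinate dehydrogenase, had 2 of 4 members lower, 0 higher and 2 not past the threshold. Sdhd, one of the pair of membrane anchor subunits, had the largest difference of all 80 members. It read 10.56, 10.38 and 10.41 in control and 9.69, 9.76 and 9.68 in mutant arrays, which left 59.9% of the control signal (difference -0.74, SE 0.07, adjusted p = 0.000207 in limma). The other anchor, Sdhc, read 10.77, 10.81 and 10.75 in control and 10.30, 10.40 and 10.33 in mutant arrays (difference -0.44, SE 0.05, adjusted p = 0.0010). Both anchors were thus separated between groups with wide gaps. The catalytic subunits, the flavoprotein Sdha and the iron-sulphur protein Sdhb, overlapped between groups and did not pass. Sdha had a difference of -0.06 (95% confidence interval -0.19 to 0.07) and Sdhb one of -0.05 (-0.18 to 0.08).

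Complex III, the cytochrome bc1 complex, had 5 of 9 members lower, 0 higher and 4 not past the threshold, with a median of -0.17. Of its small subunits 4 of 5 fell, with a median of -0.53. Uqcrq read 10.41, 10.52 and 10.51 in control and 9.92, 9.85 and 9.95 in mutant arrays (difference -0.57, SE 0.06, adjusted p = 0.000385). Uqcr10 (difference -0.54, adjusted p = 0.0018), Uqcr11 (-0.53, adjusted p = 0.0011) and the hinge protein Uqcrh (-0.36, adjusted p = 0.0046) fell too, each with all mutant arrays below control. The fifth small subunit, Uqcrb, overlapped between groups and did not pass (difference -0.06).

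The catalytic subunits of complex III did not pass. The Rieske iron-sulphur protein Uqcrfs1 read 9.66, 9.64 and 9.73 in control and 9.65, 9.69 and 9.69 in mutant arrays, a difference of 0.0028 (95% confidence interval -0.12 to 0.13) whose sign turned after renewed quantile normalization. Cytochrome c1, Cyc1, had a difference of -0.15 (adjusted p = 0.102) with separate groups. Of the core proteins, Uqcrc2 fell by 0.17 on the log2 scale (adjusted p = 0.0416), and Uqcrc1 had a difference of -0.13 with separate groups that did not pass (adjusted p = 0.145).

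Complex IV, the cytochrome c oxidase, had 6 of 15 members lower, 0 higher and 9 not past the threshold, with a median of -0.16. That median was -0.11 after renewed quantile normalization and -0.24 without dim genes. Its catalytic subunits are made inside the mitochondrion, so all members here are nuclear-encoded structural or regulatory subunits, several of which exist as tissue isoforms. The 6 genes that fell are all of the generally expressed forms, 6 of 9 with a median of -0.26. Cox7a2l, a member of the Cox7a family that joins complexes III and IV into supercomplexes, read 9.18, 9.23 and 9.49 in control and 8.66, 8.65 and 8.57 in mutant arrays. Its difference of -0.68 (SE 0.09, adjusted p = 0.0011) was the largest of the complex. Cox7a2 fell by 0.35 (adjusted p = 0.0038) and Cox6a1 by 0.33 on the log2 scale (adjusted p = 0.0075), both with all mutant arrays below control. Cox5a fell by 0.27, Cox8a by 0.26 and Cox6b1 by 0.22.

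The other generally expressed subunits were Cox5b, Cox6c and Cox7b, and none passed. Cox5b read 12.21, 12.23 and 12.26 in control and 12.21, 12.28 and 12.26 in mutant arrays, a difference of 0.01 (95% confidence interval -0.11 to 0.13). Of the muscle isoforms Cox6a2, Cox7a1 and Cox8b and the testis isoforms Cox6b2, Cox7b2 and Cox8c, all but Cox6b2 lay below the median signal. None was called, with differences from -0.20 (Cox8c) to 0.09 (Cox7b2) and a median of -0.07. Those of Cox6a2 and Cox8b were -0.03 and -0.02, and turned positive after median centring or renewed quantile normalization.

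Complex V, the ATP synthase, had 11 of 17 members lower, 0 higher and 6 not past the threshold, with a median of -0.28. In the catalytic F1 head, the small epsilon subunit Atp5e read 10.10, 10.09 and 10.23 in control and 9.47, 9.57 and 9.58 in mutant arrays (difference -0.60, SE 0.06, adjusted p = 0.000453). The delta subunit Atp5d and the gamma subunit Atp5c1 fell by 0.21 and 0.18 on the log2 scale. The alpha and beta subunits, which form the catalytic hexamer, did not pass: Atp5a1 had a difference of -0.07 (95% confidence interval -0.20 to 0.05). Atp5b read 12.86, 12.99 and 12.97 in control and 13.06, 13.03 and 12.97 in mutant arrays, a difference of 0.08 (-0.06 to 0.22), and the groups overlapped.

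The c ring, which rotates as protons pass, is made of identical proteins from 3 genes that differ in their import sequences. Atp5g3 read 11.62, 11.64 and 11.51 in control and 11.06, 11.12 and 11.07 in mutant arrays (difference -0.51, SE 0.06, adjusted p = 0.000648). Atp5g1 fell by 0.31 (adjusted p = 0.0080), and Atp5g2 had a difference of -0.16 with separate groups that did not pass (adjusted p = 0.053). Of the peripheral stalk, which holds the head still, Atp5j, Atp5o and Atp5h fell (differences of -0.32, -0.28 and -0.20) and Atp5pb did not pass (-0.12). Of the small membrane subunits, Atp5mpl (-0.44), Atp5k (-0.43) and Atp5j2 (-0.29) fell, and Atp5l (-0.28) and Atp5md (-0.03) did not pass.

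Over all complexes, the core, catalytic and F1 subunits (none of them in complex IV) were called in 5 of 17 cases with a median of -0.13, and the other 63 members in 42 cases with a median of -0.27. The complex II membrane anchors and the c ring were counted among the other members. The classes were set with the values known, and the difference was not tested. Calls also moved with the length of the gene (gene span, below), which was not compared between the classes. The median log2 signal was 11.41 in the first class and 10.61 in the other.

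Promoter sequences from RefSeq (GRCm38.p6) were searched because these genes moved together and share known regulators, the nuclear respiratory factors NRF1 and GABP, with YY1 and CREB. Of the genes of these regulators, Nrf1 had a difference of -0.12 and did not pass. Gabpa (0.12), Gabpb1 (0.06), Gabpb2 (0.01) and Yy1 (0.06) did not pass either. The table held 71 windows, of 300 bases each (250 before to 50 after the start), for 66 of the 80 members, and 18629 windows for all tested genes. Both strands were searched. The NRF1 motif (GCGCA, any base, GCGC) was in 23.9% of the members' windows and in 7.06% of all windows, and its stricter palindromic form with T as the open base, a special case of the first, in 7.04% and 1.49%. The GABP (ETS) motif CCGGAAG was in 23.9% and 12.2%, the YY1 motif AAGATGGCG in 9.86% and 1.97%, and the CREB motif TGACGTCA in 5.63% and 2.39%. NRF1 matches were in 24.4% of the 45 windows of members that fell and in 23.1% of the 26 windows of members that did not pass. For the ETS motif the shares were 28.9% and 15.4%. Another gene lay over the 250 bases before the start in 26 of the members' 71 windows. Windows of the same gene can overlap, and both windows of Ndufa5, which did not pass, hold the same NRF1 match. The windows of all tested genes include those of dim genes, and no share was taken for genes above the median signal. These are matches of letters and were not tested.

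The sequences are the 250 bases before the start of 1 fallen member of each of complexes I, III, IV and V, chosen because they hold a match and no other gene lies over the window, with matches in capitals. The Ndufb7 window (chr8:83566508-83566757, plus strand) has 1 ETS match, from 20 to 14 bases before the start. The Uqcr11 window (chr10:80406822-80407071, minus strand) has 1 ETS match from 66 to 60 bases before it. The Cox6a1 window (chr5:115348959-115349208, minus strand) has NRF1 matches at 162 to 153 and 117 to 108 bases and an ETS match at 16 to 10 bases before it. The Atp5e window (chr2:174464102-174464351, minus strand) has 1 ETS match at 102 to 96 bases before it.
Ndufb7: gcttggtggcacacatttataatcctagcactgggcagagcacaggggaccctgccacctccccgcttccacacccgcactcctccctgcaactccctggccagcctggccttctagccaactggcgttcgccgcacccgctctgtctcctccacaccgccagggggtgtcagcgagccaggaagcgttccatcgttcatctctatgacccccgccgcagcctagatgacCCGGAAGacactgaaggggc
Uqcr11: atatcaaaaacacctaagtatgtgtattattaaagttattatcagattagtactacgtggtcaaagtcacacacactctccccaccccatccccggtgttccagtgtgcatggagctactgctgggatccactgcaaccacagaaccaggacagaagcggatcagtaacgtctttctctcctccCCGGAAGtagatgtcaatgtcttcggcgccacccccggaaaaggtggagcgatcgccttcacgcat
Cox6a1: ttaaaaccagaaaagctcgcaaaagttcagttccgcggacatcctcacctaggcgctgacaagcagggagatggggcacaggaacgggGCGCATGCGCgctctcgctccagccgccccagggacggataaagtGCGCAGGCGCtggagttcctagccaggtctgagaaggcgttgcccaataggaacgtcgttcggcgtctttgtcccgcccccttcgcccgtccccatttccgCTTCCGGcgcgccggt
Atp5e: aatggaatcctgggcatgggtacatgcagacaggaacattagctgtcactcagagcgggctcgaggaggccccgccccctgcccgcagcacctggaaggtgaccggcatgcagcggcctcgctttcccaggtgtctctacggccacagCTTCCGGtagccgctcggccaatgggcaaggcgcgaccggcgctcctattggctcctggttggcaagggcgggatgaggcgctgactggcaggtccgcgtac

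Among genes above the median signal, the calls moved with gene span. The members span little of the genome. All 80, dim ones included, had a median gene span of 7.15 kb in the RefSeq table, beside 24.9 kb for genes above the median signal. Of the latter, those of up to 6 kb were called lower in 40.1% and had a median difference of -0.17, and those over 25 kb in 12.7% with a median of 0.07. Only members above the median signal are counted in the span classes, and within each class they were lower than the class. Members of up to 6 kb were called lower in 19 of 28 cases (67.9%) with a median of -0.31. Those over 6 to 12 kb were called in 16 of 27 cases (59.3%), against 27.9% of all such genes, with medians of -0.22 and -0.10. Those over 12 to 25 kb were called in 10 of 14 cases (71.4%), against 20.2%, with medians of -0.25 and -0.04. Only 5 members above the median signal were longer, of which 2 were called. These are shares and medians without a test, chosen after the values were seen, and the part of gene length in the fall of the members beyond these classes was not tested.

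**Figure D3:**
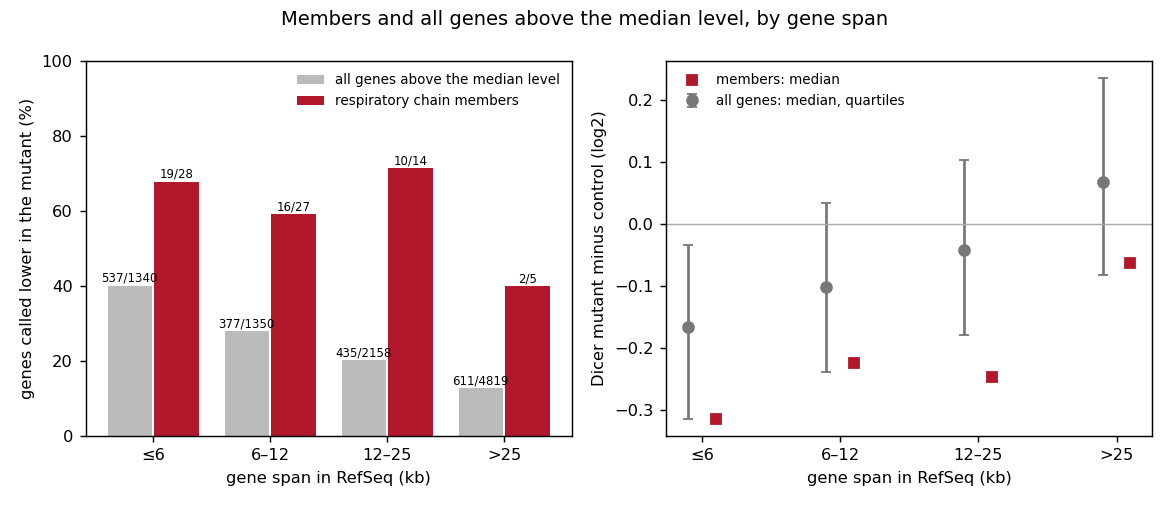
Left, percent of genes called lower in the mutant among all genes above the median signal (grey) and among the members above it (red), by RefSeq gene span in kb, with counts above the bars. Right, median log2 difference of the same sets, with quartiles for all genes. The grey bars fall from 40.1% to 12.7% with span, and the red bars are higher in each class.

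Subunit genes of the respiratory chain have many near-identical processed copies in the genome, and probe sets of 1 gene could differ. Of the members, 16 had more than 1 probe set with that symbol alone. Of their 23 probe sets that were not used, 21 were lower in the mutant mean, and 20 lay within 0.2 of the difference of the one used. The exceptions were in 3 genes. Atp5md had a difference of -0.03 on its brightest probe set and -0.69 on another (10.24 ± 0.52 in control and 9.55 ± 0.14 in mutant, SD, n = 3 each). Cox7b had -0.16 on its brightest and -0.49 on its second (11.48 ± 0.11 and 10.99 ± 0.13). Atp5l had -0.28, with 1 of its 4 other probe sets at 0.17. Within that margin, some members that did not pass were still lower on other probe sets. Atp5pb had -0.12 on its brightest and -0.28 on its other (11.05 ± 0.10 and 10.77 ± 0.04). Atp5g2 had -0.16 on its brightest and -0.29 and -0.25 on its others, and Ndufs3 had -0.15 and -0.23. Cox6c had -0.11 and -0.05, Uqcrb -0.06, -0.05 and -0.0041, and Cox5b 0.01 and 0.00097. For Cox7a2l and Ndufc1 both probe sets were lower (-0.68 and -0.54, and -0.49 and -0.53), as were both of Uqcr11 (-0.53 and -0.58).

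Other genes of mitochondrial respiration were read from lists chosen with earlier results of these data known. Subunits that the symbol rule leaves out were measured for 4 genes. The general complex IV subunit Cox4i1 fell from 11.21 ± 0.05 to 10.93 ± 0.04 and the acyl carrier protein Ndufab1 from 10.36 ± 0.04 to 10.17 ± 0.06 (SD, n = 3 each; differences -0.29 and -0.19, adjusted p = 0.0071 and 0.0401 in limma). Cox4i2 and the ATP synthase inhibitor Atpif1 did not pass.

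Assembly factors, which build the complexes but are not part of them, were measured for 40 genes, with 14 lower, 2 higher and 24 not past the threshold and a median of -0.17. The share lower was 35%, with 13.9% of all genes, 20.3% of genes above the median signal and 58.8% of the members beside it. No test of these differences was made. Of the 40 factors, 34 lay above the median signal of all values. Their median signal was 8.82, beside 10.70 for the members. Cox20, which helps to mature a complex IV subunit, read 10.06, 9.96 and 10.01 in control and 9.46, 9.21 and 9.37 in mutant arrays (difference -0.66, SE 0.08, adjusted p = 0.000609). Sdhaf1, which inserts iron-sulphur clusters into Sdhb, had a difference of -0.65 (adjusted p = 0.000683). The complex I factor Ndufaf3 (-0.55) and the complex IV factor Cox18 (-0.53) fell too. The genes that rose were Atpaf1, a factor for the F1 head (0.31, adjusted p = 0.0059), and Coa7 (0.23, adjusted p = 0.0378).

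Of 14 measured genes for coenzyme Q and cytochrome c, 3 fell (21.4%, near the 20.3% of genes above the median signal) and 0 rose: Coq2, Coq9 and Coq4, of coenzyme Q synthesis, with differences of -0.38, -0.43 and -0.32. Of 16 genes of the TCA cycle and pyruvate dehydrogenase, which supply NADH and succinate, 1 fell (6.25%; Idh3b, -0.20, adjusted p = 0.0257), 0 rose and 15 did not pass, with a median of -0.02. Of 9 nucleotide carriers, porins and uncoupling proteins 0 passed at an adjusted p of 0.05, and 1 had an unadjusted p under it, the porin Vdac2 (-0.15). The ADP/ATP carrier Slc25a5 had a difference of 0.11 that did not pass.

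Of 22 regulators of mitochondrial gene expression and biogenesis, 3 rose, 1 fell and 18 did not pass, with a median of -0.0015. The share that rose was close to the 11.8% of all genes and below the 19.3% of genes above the median signal. Those that rose were the coactivators Ppargc1b (difference 0.28, adjusted p = 0.0097) and Pprc1 (0.21, adjusted p = 0.0248), and Lrpprc, which stabilises mitochondrial mRNAs (0.25, adjusted p = 0.0190). Slirp, the partner protein of Lrpprc, fell by 0.36 on the log2 scale (adjusted p = 0.0026).

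**Figure D4:**
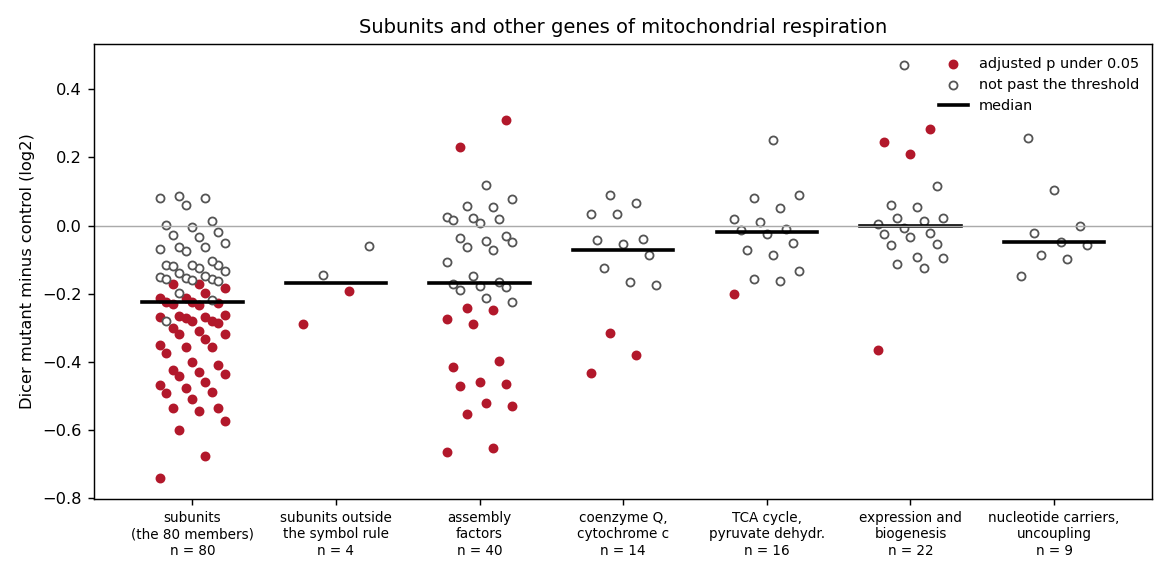
Difference between Dicer mutant and control (log2) of the 80 subunit genes and of 6 lists of other genes of mitochondrial respiration. Filled points passed an adjusted p of 0.05 in limma, open points did not, and bars are medians. The subunits have a median of -0.23 and the assembly factors of -0.17, and those of the TCA cycle (-0.02) and of the regulators (-0.0015) lie near 0.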

How the data were processed

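The deposited values are log2 signals, 1 per probe set and array. The submitters' processing notes name RMA and affy, and versions, genome build and filters were not given in the sources used here. Since RMA brings the probe signals of all arrays to the same distribution, a shift common to most transcripts would be largely removed. The medians of the deposited arrays still differed slightly (7.47 to 7.54). The platform annotation pairs 20728 of the 23309 probe sets with 1 symbol and 1174 with several, and leaves 1407 unnamed. A gene was read from its brightest single-symbol probe set over the 6 arrays, with no signal filter.

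Genotype was the only term of the model (lmFit and eBayes of limma 3.58.1 under R 4.3.3, checked on simulated data). The 19296 two-sided p-values went into 1 Benjamini-Hochberg adjustment, calls were made at 0.05, and intervals are 95% intervals of that fit. Members, lists and tests were chosen with earlier results of these data known. Named were Dicer1, up to 6 called members of each complex by p, the highest and the lowest member of each, all paralogous isoforms, and of each list up to 4 called genes, or the top 2 where none passed. Core, catalytic and remaining small subunits, the assembly factors that rose, Cox4i2 and Atpif1 were named after their values were seen. So were Nrf1, Gabpa, Gabpb1, Gabpb2 and Yy1. All 80 member symbols matched RefSeq (GRCm38.p6) through the gene ID. Spans and promoters are of that assembly, and the files name no build. Alternatives were a replicate block, leaving out each array, renewed quantile normalization, median centring, dropping dim genes, averaging or keeping all probe sets of a gene, a variance trend with robust estimation, array weights and other thresholds.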

Additional observations from a re-analysis of the deposited data

How the results depend on the processing

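No member was called higher under any alternative run, and all 47 called members kept a negative difference under each. The count of lower members was 33 to 40 (of 80) with 1 array left out, 15 to 19 in complex I, 2 in complex II, 4 in complex III, 4 to 6 in complex IV and 8 to 10 in complex V. At an adjusted p under 0.01 it was 30 in all, 13 in complex I and 3 in complex IV, since fewer pass a stricter threshold. The share of all genes at that threshold is not given here. The median difference ranged with 1 array left out from -0.24 to -0.22 over all members, from -0.26 to -0.24 in complex I, -0.27 to -0.24 in complex II, -0.18 to -0.16 in complex III, -0.21 to -0.12 in complex IV and -0.29 to -0.22 in complex V. After median centring, which moves all genes alike, these medians were -0.19 over all members and -0.20, -0.22, -0.14, -0.13 and -0.24 in complexes I to V. Without dim genes the median was -0.25 over all members and -0.24 in complex IV. It was -0.11 in complex IV after renewed quantile normalization, and -0.20 in complex IV and -0.25 in complex V when a gene's probe sets were averaged. Dropping dim genes took out tissue isoforms of complex IV, whose median was -0.07, beside -0.26 for the general forms. Averaging changed the value of Cox7b, the median gene of complex IV (-0.16, with -0.49 on its second probe set). For complex V and for quantile normalization the cause was not tested. Dicer1 stayed lower in each setting, at -0.63 to -0.56 with 1 array left out.

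With the replicate block, 35 of the 47 members remained called, and 1878 of all 19296 genes were called lower. Ndufa4, Ndufa9, Ndufa12, Ndufa13, Ndufb2, Ndufb9, Uqcrc2, Cox6b1, Cox8a, Atp5c1, Atp5d and Atp5h lost the call. Their limma adjusted p in that fit ran from 0.065 (Ndufa4) to 0.13 (Ndufa9). Deviations of same-numbered control and mutant arrays correlated at -0.19, -0.10 and -0.22 across genes, and those of differently numbered arrays at -0.0082 to 0.18. With 3 arrays per group the deviations depend on each other, so these values cannot decide whether arrays were paired.

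Differences near 0 changed sign, none of them called. Uqcrfs1 was at -0.014 and Cox6a2 and Cox8b at 0.021 and 0.060 after quantile normalization. Cox6a2 and Cox8b were at 0.0059 and 0.014 after median centring, and Cox8b at 0.0034 with array weights. Slc25a5 was at -0.075 with the mean of its probe sets. With 1 array left out Uqcrfs1 ran from -0.016 to 0.029, Cox7b2 from -0.0030 to 0.15, Cox6a2 from -0.081 to 0.052 and Cox8b from -0.10 to 0.080.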

Other observations

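Cox7c and Ndufb4 were measured only on probe sets that carry several symbols and so entered no comparison. The 3 probe sets shared by Cox7c and Gm12338 had control means of 13.10, 12.18 and 8.89 and differences of -0.0034, -0.04 and 0.27, the last with an SD of 1.32 between control arrays. The 2 probe sets shared by Ndufb4 and Ndufb4b had differences of -0.11 (11.72 ± 0.04 in control and 11.61 ± 0.02 in mutant, SD, n = 3 each) and 0.58 (6.67 ± 0.91 and 7.25 ± 0.51). The probe set shared by Ndufs5 and its pseudogene had a difference of -0.27, beside -0.22 on the probe set of Ndufs5 alone, which was the one compared.

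Tfb2m, a transcription factor of the mitochondrial genome singled out after its values were seen, had the highest difference among the regulators (0.47, limma adjusted p = 0.068) without passing. It read 9.17, 9.82 and 9.82 in control and 10.12, 10.06 and 10.05 in mutant arrays, so control replicate 1 stood apart from the other control arrays.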
